A study of Mus musculus with 6 samples.

Results

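The S100 proteins are small calcium-binding proteins of vertebrate cells, each with a pair of EF-hand loops, that mostly work as dimers. Calcium opens a cleft on the dimer through which it grips partner proteins such as annexins, myosin and cytoskeletal scaffolds, and some members are also released and act on cell surface receptors. Stromal and immune cells of marrow both make several of them, and S100a4 is in wide use as a fibroblast marker although leukocytes express it too. The members described here are the S100 genes other than the calprotectin subunits: S100a1, S100a4, S100a6, S100a10, S100a11, S100a13, S100a16 and S100b. They were chosen by gene symbol and are 8 of 22984 genes in the table, and all 8 passed the filter for testing, a mean of at least 1 FPKM (fragments per kilobase of gene, scaled by library depth) over the 6 libraries.

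RNA came from BMSCs of the mouse, which are mesenchymal stem cells of bone marrow and called O-BMSCs in the design text, where the prefix is not expanded. Wild-type Grx2+/+ cells gave 3 libraries, and Grx2-/- cells, which lack glutaredoxin 2 (a mainly mitochondrial thiol-disulfide oxidoreductase encoded by Glrx2), gave the other 3. Strain, age, sex, passage and the design of the deleted allele are not in the labels, and neither is the origin of the replicates (animals or cultures), so the p-values reflect the spread among libraries only, which may be technical. Glrx2 stood at 3.57, 3.74 and 3.54 FPKM in Grx2+/+ replicates 1 to 3 and was listed at 0.00461, 0 and 0 FPKM in Grx2-/- replicates 1 to 3. Depth worked back from the values was 40797879 to 41794919 reads per library. Grx2+/+ replicate 2 and Grx2-/- replicate 1 stood furthest from their groups, by a small margin. The measure was the root mean square difference of log2(FPKM + 1) values over tested genes. In Grx2+/+ it was 0.19 between replicates 1 and 2, 0.11 between 1 and 3 and 0.14 between 2 and 3. In Grx2-/- it was 0.19 between replicates 1 and 2, 0.15 between 1 and 3 and 0.10 between 2 and 3. Stromal markers averaged over 1 FPKM in both groups (Col1a1 at 3757 FPKM in Grx2+/+ and 2164 in Grx2-/-) except Lepr, the leptin receptor of marrow stroma, which was at 3.42, 4.48 and 3.60 FPKM in Grx2+/+ and at 0.0375, 0.0296 and 0.0382 FPKM in Grx2-/-. All macrophage markers were present in both groups (Lyz2 at 1195 FPKM in Grx2+/+ and 2085 in Grx2-/-).

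Of the 8 genes, 7 rose in Grx2-/- libraries, 0 fell and 1, S100a11, did not pass (two-sided limma test with trend; the threshold was an adjusted p of 0.05 over 11083 tested genes). Across all tested genes 42.7% rose, 24.6% fell and 67.4% changed in either direction. The largest rise was that of S100a4, 3.78-fold, and the others ran from 1.81-fold for S100b down to 1.09-fold for S100a16, as ratios of mean FPKM. The median log2 fold change of the members was 0.54, beside 0.085 for all tested genes. Groups did not overlap for 7 of 8 members, all higher in Grx2-/-, as for 73.1% of tested genes in either direction and 45.7% with Grx2-/- higher, and 1 of 8 members rose at least 2-fold, beside 6.49% of tested genes. After median-of-ratios scaling 6 members rose and S100a11 was the 1 that fell; after quantile normalization the counts were 6 and 0. These scalings shift the median of all tested genes by -0.087 and -0.11, and 50.2% and 46.4% of called genes were then higher in Grx2-/-, against 63.5% on the values as deposited. All log2 fold changes below are Grx2-/- over Grx2+/+ on the log2(FPKM + 1) scale, given ± SE, which understates the change of low genes. Levels are FPKM, given as mean ± SD over n = 3 libraries, or library by library in the order of replicates 1, 2 and 3.

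Promoter windows from RefSeq (build GRCm38.p6, another build than the GRCm39 of the submitters' processing notes) were matched for 7 of the 8 members by symbol; S100a10 had no entry. The windows run from 250 bases before to 50 bases after an annotated start, and 4 are shown because they belong to the genes with the main contrasts below. S100a13 and S100a1 lie head to head on chromosome 3, with annotated starts 105 bases apart on opposite strands, so that 204 of the 300 bases of their windows are the same DNA. The S100a13 window (chr3:90514185-90514484, plus strand) has these shared bases in capitals:
S100a13: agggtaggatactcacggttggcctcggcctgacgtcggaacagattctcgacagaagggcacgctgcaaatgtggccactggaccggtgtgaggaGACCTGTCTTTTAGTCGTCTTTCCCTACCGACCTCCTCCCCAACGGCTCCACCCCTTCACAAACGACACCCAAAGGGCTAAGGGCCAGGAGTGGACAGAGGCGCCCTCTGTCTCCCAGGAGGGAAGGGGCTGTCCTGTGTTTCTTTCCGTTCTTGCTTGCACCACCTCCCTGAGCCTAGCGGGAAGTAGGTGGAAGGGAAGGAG
In the next 3 windows capitals mark matches, on either strand, to 6 short motifs: the TATA box TATAAA, the GC box GGGCGG, the AP-1 site TGANTCA, the core antioxidant response element TGACNNNGC, the TCF/LEF site CTTTGNT and the core hypoxia response element ACGTG, where matches on opposite strands may overlap. The windows are S100a4 (chr3:90603520-90603819), S100a6 (chr3:90612644-90612943) and S100a11 (chr3:93520246-93520545), all on the plus strand.
S100a4: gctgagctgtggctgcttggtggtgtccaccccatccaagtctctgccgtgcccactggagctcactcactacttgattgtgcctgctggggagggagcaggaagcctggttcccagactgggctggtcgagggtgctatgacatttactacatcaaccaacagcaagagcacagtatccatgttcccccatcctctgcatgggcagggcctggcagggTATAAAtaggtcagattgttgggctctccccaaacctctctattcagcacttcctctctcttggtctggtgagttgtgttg
S100a6: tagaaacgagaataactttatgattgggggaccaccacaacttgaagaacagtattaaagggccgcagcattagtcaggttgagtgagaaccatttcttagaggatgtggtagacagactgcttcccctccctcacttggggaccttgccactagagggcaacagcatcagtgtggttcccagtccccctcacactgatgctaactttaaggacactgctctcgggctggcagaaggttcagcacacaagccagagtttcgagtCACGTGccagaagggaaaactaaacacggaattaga
S100a11: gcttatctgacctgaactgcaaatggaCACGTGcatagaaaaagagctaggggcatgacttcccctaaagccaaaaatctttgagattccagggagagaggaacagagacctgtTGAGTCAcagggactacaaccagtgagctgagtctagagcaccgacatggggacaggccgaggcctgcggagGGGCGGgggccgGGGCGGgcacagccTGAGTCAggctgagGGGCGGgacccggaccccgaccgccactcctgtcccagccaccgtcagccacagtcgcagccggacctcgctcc
S100a4, the gene with the largest rise, held a TATA box whose first base lay at -31 from the start, a motif found in 13.6% of all 32851 windows of the same length, in 6.92% of the windows of tested genes and in 1 of 8 member windows. S100a6 held ACGTG read on both strands of 1 CACGTG, and S100a11, the gene that did not pass, held 3 GC boxes, 2 AP-1 sites and 1 CACGTG. A GC box was in 2 of 8 member windows, 35.7% of all windows and 64.3% of those of tested genes. An AP-1 site was in 2 of 8, 7.81% and 4.96%, and ACGTG in 2 of 8, 19.6% and 26.1%. The antioxidant response core was in 1 of 8 member windows, an S100a16 window, in 12.4% of all windows and in 14.4% of those of tested genes, and the TCF/LEF site was in 0 of 8, 18.6% and 13.5%. The S100a1, S100a13 and S100b windows held none of these 6 motifs. A match describes letters in this window only.

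S100a4, also called metastasin or fibroblast-specific protein, binds non-muscle myosin and is linked to cell motility. Its level was 276, 357 and 304 FPKM in Grx2+/+ and 1033, 1271 and 1236 FPKM in Grx2-/- libraries. Every Grx2-/- library was above every Grx2+/+ library, with Grx2+/+ replicate 2 highest in its group and Grx2-/- replicate 1 lowest in its group. The means were 312 ± 41.1 and 1179.8 ± 129 FPKM (log2 fold change 1.92 ± 0.11, limma adjusted p = 1.62e-06). Leaving out Grx2+/+ replicate 2 and Grx2-/- replicate 1, a step chosen once the values were known, gave a change of 2.11 ± 0.047. For S100a4 these are the libraries nearest the other group, so their removal could only widen the difference. It is therefore no check on the change. In rank of mean level among tested genes S100a4 went from place 182 in Grx2+/+ to place 33 in Grx2-/-.

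**Figure D1:**
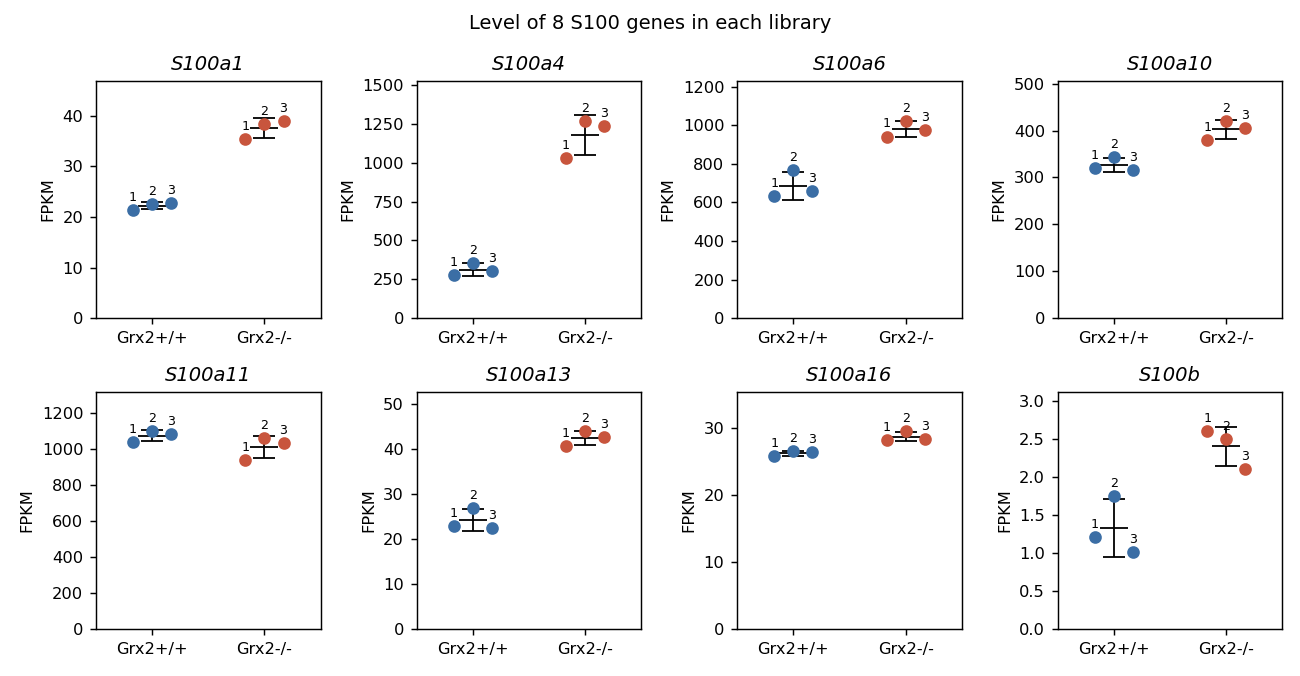
FPKM of the 8 S100 genes (vertical axes from 0, a scale per gene) in the Grx2+/+ (blue) and Grx2-/- (red) libraries; points are libraries labelled by replicate number, bars are mean ± SD, n = 3. The groups are apart for 7 genes, most widely for S100a4, and overlap for S100a11.

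Its neighbour S100a6, calcyclin, a partner of annexins and of the Siah-interacting protein Cacybp, stood at 634, 769 and 659.7 FPKM in Grx2+/+ and at 942, 1025 and 976 FPKM in Grx2-/- libraries. The groups did not overlap, and Grx2+/+ replicate 2 again lay closest to the other group. The change was 1.43-fold (0.52 ± 0.072, limma adjusted p = 0.000337). Between S100a4 and S100a6 lies S100a5, which was nearly silent, with 0, 1 and 1 reads in Grx2+/+ and 1, 1 and 6 reads in Grx2-/- libraries.

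S100a10, or p11, no longer binds calcium and is held in the open, target-binding form; with annexin A2 it makes a complex that binds plasminogen at the cell surface. It was at 319, 343 and 316 FPKM in Grx2+/+ and at 380.02, 421 and 406 FPKM in Grx2-/- libraries. The groups did not overlap, and the change was 1.24-fold (0.30 ± 0.049, limma adjusted p = 0.000777). Its partner Anxa2 was at 688, 693 and 677 FPKM in Grx2+/+ and at 748, 781 and 765 FPKM in Grx2-/- (0.16 ± 0.031, limma adjusted p = 0.00247). With median-of-ratios scaling the Anxa2 call ended (0.055, adjusted p = 0.179). The FPKM ratio of S100a10 to Anxa2 was 0.464, 0.495 and 0.467 in Grx2+/+ and 0.508, 0.540 and 0.532 in Grx2-/- libraries. The ratio was higher in all 3 Grx2-/- libraries (exact permutation test, two-sided, p = 0.1, the smallest that 3 against 3 allows).

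S100a11, calgizzarin, a partner of annexin A1, was the most abundant member in Grx2+/+ libraries. It was at 1039, 1099.5 and 1086 FPKM in Grx2+/+ and at 941, 1059.7 and 1032 FPKM in Grx2-/- libraries. The groups overlapped, with Grx2-/- replicate 1 lowest, and the difference of -0.09 ± 0.05 had a 95% interval of -0.21 to 0.03 (limma adjusted p = 0.143). The difference was -0.19 after median-of-ratios scaling, where it passed the test (adjusted p = 0.0112), 0.015 after quantile normalization (adjusted p = 0.721) and -0.039 without Grx2-/- replicate 1. RefSeq lists an S100a11 pseudogene, so how reads were shared with it is uncertain. Anxa1 rose over the same libraries, from 427 ± 20.2 to 595 ± 29.5 FPKM, so that the FPKM ratio of S100a11 to Anxa1 was 2.52 ± 0.0482 in Grx2+/+ and 1.70 ± 0.0291 in Grx2-/-.

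S100a13, which takes part in the unconventional release of FGF1 and interleukin-1 alpha, and S100a1, best known from heart and skeletal muscle, where it tunes calcium release channels, are the head-to-head genes whose shared promoter DNA is in capitals above. S100a13 was at 23.0, 26.9 and 22.5 FPKM in Grx2+/+ and at 40.7, 43.9 and 42.6 FPKM in Grx2-/- libraries. S100a1 was at 21.4, 22.7 and 22.8 FPKM in Grx2+/+ and at 35.4, 38.4 and 39.1 FPKM in Grx2-/- libraries. Neither gene's groups overlapped, and the sizes were alike: 1.76-fold for S100a13 (0.79 ± 0.068, limma adjusted p = 2.11e-05) and 1.69-fold for S100a1 (0.73 ± 0.047, adjusted p = 4.15e-06). The FPKM ratio of S100a1 to S100a13 was 0.928 ± 0.0865 in Grx2+/+ and 0.887 ± 0.0257 in Grx2-/-. In RefSeq GRCm38.p6 the transcribed spans listed for both genes overlap by 98 bases on opposite strands. Transcripts from the starts of the windows above would diverge and share no bases, so the listed spans reach beyond those starts. The strand setting of the counting is not given in the sources used here, so reads from the overlapping bases cannot be told apart. The release cargoes of S100a13 were under the filter and not tested: Il1a had 8, 5 and 12 reads in Grx2+/+ and 0, 0 and 1 in Grx2-/-, and Fgf1 had 8, 5 and 4 against 1, 2 and 5. The S100a1 partner Ryr1, the skeletal muscle calcium release channel, had 21, 81 and 38 reads against 8, 7 and 7. Il1a and Ryr1 were thus lower in every Grx2-/- library than in any Grx2+/+ library. Among tested genes 73.1% had groups that did not overlap, in either direction. Ryr1 is also on the list of skeletal muscle markers, whose sums are given below. A link of Il1a, Fgf1 or Ryr1 with S100a13 or S100a1 was not tested, and all 3 were named after their values were seen.

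S100b, the glial member that adipocytes and chondrocytes also make, was the lowest of the set. It was at 1.21, 1.75 and 1.02 FPKM in Grx2+/+ (82, 120 and 70 reads) and at 2.61, 2.50 and 2.11 FPKM in Grx2-/- libraries (181, 171 and 144 reads). All Grx2-/- values lay above all Grx2+/+ values, and the coefficient of variation between Grx2+/+ libraries, 28.8%, was larger than the 10.5% that counting alone would give. The change was 1.81-fold (0.56 ± 0.12, limma adjusted p = 0.00333). S100a16, a widely expressed member, was at 25.8, 26.5 and 26.4 FPKM in Grx2+/+ and at 28.2, 29.5 and 28.4 FPKM in Grx2-/- libraries. That rise of 1.09-fold passed the test (0.12 ± 0.035, adjusted p = 0.0132) but was close to the median shift of all genes. The S100a16 difference was 0.026 with median-of-ratios scaling (adjusted p = 0.53), -0.01 with quantile normalization (adjusted p = 0.802) and 0.11 without Grx2+/+ replicate 1 (adjusted p = 0.0501), none of which passed.

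**Figure D2:**
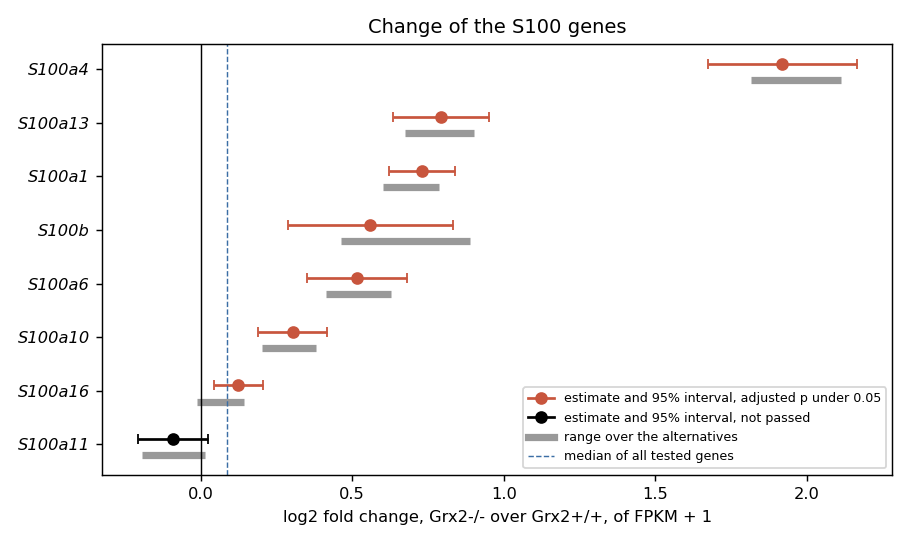
Log2 fold change of each S100 gene, Grx2-/- over Grx2+/+, on the log2(FPKM + 1) scale (horizontal axis); points with bars are estimates with 95% intervals, grey bars the range over the alternatives, and the dashed line the median of all tested genes (0.085). S100a4 lies furthest right at 1.92, and the grey bars of S100a11 and S100a16 cross 0.

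The order of levels changed with genotype. In Grx2+/+ libraries S100a11 (1039 to 1099.5 FPKM) lay above S100a6 (634 to 769), and S100a6 above S100a10 (316 to 343) and S100a4 (276 to 357), whose ranges overlapped. S100a16, S100a13 and S100a1 followed at 21.4 to 26.9 FPKM, with S100a16 overlapping S100a13 and S100a13 overlapping S100a1. In Grx2-/- libraries S100a4 (1033 to 1271 FPKM) had the highest mean, its range overlapped that of S100a11 (941 to 1059.7), and S100a11 overlapped S100a6 (942 to 1025). S100a13 (40.7 to 43.9 FPKM), S100a1 (35.4 to 39.1) and S100a16 (28.2 to 29.5) were then separate, and S100b was last in both groups. Summed over the 8 genes the level was 2339, 2646 and 2438 FPKM in Grx2+/+ and 3402, 3891 and 3763 FPKM in Grx2-/- libraries. S100a4 made up 11.8%, 13.5% and 12.5% of that sum in Grx2+/+ and 30.3%, 32.7% and 32.9% in Grx2-/-. Within groups the members leaned the same way by library. Grx2+/+ replicate 2 was the highest of its group for 7 of 8 members (50.8% of tested genes), and Grx2-/- replicate 1 the lowest for 7 of 8 (40.04% of tested genes).

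Markers of other cell types moved with genotype, and in bulk RNA fewer cells of a type cannot be told apart from less RNA per cell. The counts of markers here and in the next paragraph stand beside 42.7% of all tested genes that rose and 24.6% that fell. Stromal markers, of the labelled cell type, summed to 6963 to 7965 FPKM in Grx2+/+ and 4553 to 5264 FPKM in Grx2-/-. Most of that sum was Col1a1 (means of 3757 and 2164 FPKM) and Col1a2 (3427 and 1850 FPKM), so it mainly follows these collagen genes. Of 12 tested 5 were higher (Pdgfra, Thy1, Cd44, Ly6a and Prrx1), 6 lower and Cxcl12 did not pass. Thy1, a surface marker of fibroblasts and mesenchymal stem cells, went from 11.9 to 167 FPKM and Ly6a from 57.5 to 362 FPKM, both in the direction of S100a4, which is used as a fibroblast marker, while Col1a1, Col1a2 and Lepr fell. Macrophage markers, from cells that also express S100a4, S100a6, S100a10 and S100a11, summed to 1530.4 to 1652 FPKM in Grx2+/+ and 2513 to 3378 FPKM in Grx2-/-, with 9 of 10 higher by the same test and C1qa not passing. By library the sums were 1530.4, 1652 and 1545 FPKM in Grx2+/+ and 2513, 3378 and 3049 FPKM in Grx2-/-. The lowest and highest library of each group matched those of S100a4, as they did for the adipocyte and glial sums below. Within Grx2+/+ the neutrophil sums (918, 2661 and 1460 FPKM in replicates 1 to 3) and the skeletal muscle sums below matched too. In Grx2-/- neither of these matched S100a4 in both its lowest and its highest library. Lyz2 made up most of the macrophage sum, at 1283 FPKM in Grx2+/+ replicate 2. In that library both S100a4 and the neutrophil sum were the highest of Grx2+/+. Itgam and Mrc1 were also highest in that library of Grx2+/+. Cd68, Adgre1, Csf1r, C1qa, C1qb, Mpeg1 and Cd14 were lowest there. Neutrophil markers, the calprotectin genes among them, summed to 918 to 2661 FPKM in Grx2+/+ and 4.68 to 6.94 FPKM in Grx2-/-, with 8 of 8 tested lower. Endothelial markers summed to 20.9 to 24.4 FPKM in Grx2+/+ and 3.06 to 3.33 FPKM in Grx2-/-, with 5 of 6 tested lower, and osteoblast markers to 299 to 331 FPKM and 14.4 to 17.5 FPKM, with 6 of 6 lower. The part of these cells, stromal cells included, in the S100 changes was not tested.

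For S100b, glial and Schwann cell markers summed to 1.19 to 1.6 FPKM in Grx2+/+ and 2.52 to 3.08 FPKM in Grx2-/-. Of their 8 genes only Mbp, a myelin gene also transcribed outside myelin, was abundant enough to test and it rose; Foxd3, Cdh19 and Gfap were below 0.1 FPKM in every library and Sox10, the defining factor of these cells, was at 0.00903, 0.0358 and 0 FPKM in Grx2+/+ and at 0.0353, 0.143 and 0.135 FPKM in Grx2-/-. Chondrocyte markers summed to 75.8 to 79.6 FPKM in Grx2+/+ and 37.8 to 42.2 FPKM in Grx2-/- (2 of 3 tested higher, Col2a1 lower), and adipocyte markers to 24.0 to 65.3 and 16.1 to 18.1 FPKM (1 of 3 tested lower; 1 higher, Pparg, which kept its call in 10 of 17 alternatives), with Lep below 0.1 FPKM in every library. Skeletal muscle markers, from tissue rich in S100a1, summed to 6.00, 59.5 and 21.7 FPKM in Grx2+/+ and to 2.70 to 4.38 FPKM in Grx2-/-, with 4 of 5 tested lower. Of those 4, Mylpf kept its call under all 17 alternatives, but Myog kept it in 10 of 14, Myh3 in 8 of 13 and Tnnt3 in 6 of 14, and without Grx2+/+ replicate 2 these last genes were under the filter. S100a1 was at 21.4, 22.7 and 22.8 FPKM in the Grx2+/+ libraries with muscle sums of 6.00, 59.5 and 21.7 FPKM. The part of muscle RNA in the S100a1 level was not tested. Smooth muscle markers summed to 2642 to 2898 FPKM and 884 to 1435 FPKM, with 5 of 5 tested lower, of which Cnn1 kept its call in 14 of 17 alternatives.

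**Figure D3:**
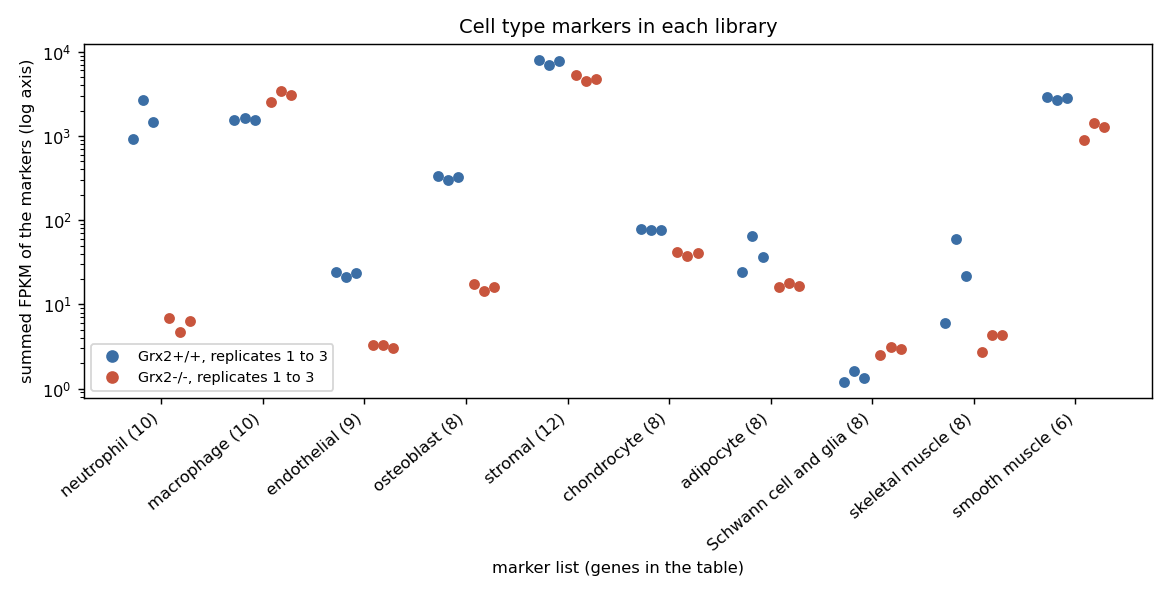
Summed FPKM (log axis) of the marker genes of each cell type in the 6 libraries, replicates 1 to 3 from left to right; numbers in brackets are genes in the table. Macrophage sums are higher in Grx2-/- (2513 to 3378) than in Grx2+/+ (1530.4 to 1652), and neutrophil, endothelial, osteoblast and smooth muscle sums are lower.

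The other S100 genes fell into a silent class and the calprotectin subunits. S100a8 was at 328, 999.6 and 532 FPKM in Grx2+/+ and at 1.16, 0.93 and 1.06 FPKM in Grx2-/-, and S100a9 at 308, 918 and 499.7 FPKM and at 0.457, 0.649 and 0.651 FPKM. Both fell (-8.10 ± 0.34 and -8.36 ± 0.33), against the direction of the 7 members that rose. S100a3, S100a5, S100a7a, S100a14 and S100g averaged under the filter and were not tested. S100a7l2 and S100z were looked up by symbol and had no row in the table. S100a7a had 3, 4 and 5 reads in Grx2+/+ and 29, 28 and 51 reads in Grx2-/-, S100a3 had 8, 19 and 10 against 13, 45 and 31 reads, and S100a14 had 1, 2 and 1 against 7, 1 and 1 reads. S100g had 7, 4 and 1 reads in Grx2+/+ against 2, 0 and 0 in Grx2-/-, and S100a2 (not on the list; named after its values were seen) had 1, 0 and 0 against 0, 5 and 2 reads.

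All members but S100b, which is on chromosome 10, belong to the S100 cluster of chromosome 3. In RefSeq GRCm38.p6 the span from S100a1 to S100a10 holds 86 other genes, those of the epidermal differentiation complex among them, of which 11 were in the table and 0 passed the filter. Of the 5 tested genes on either side, which were taken after the data were seen, 6 rose, 1 fell and 3 did not pass. Over all tested genes 42.7% rose and 24.6% fell, and the 67.4% that changed either way is near the share here. Chtop, an mRNA export factor and the nearest tested gene beyond S100a1, rose by 0.29 ± 0.04 and Snapin, a SNARE-associated protein, by 0.50 ± 0.041, while Them4, the nearest beyond S100a10, fell (-0.56 ± 0.053). Direction differed within the cluster, up for S100a6 and down for the nearby S100a8.

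**Figure D4:**
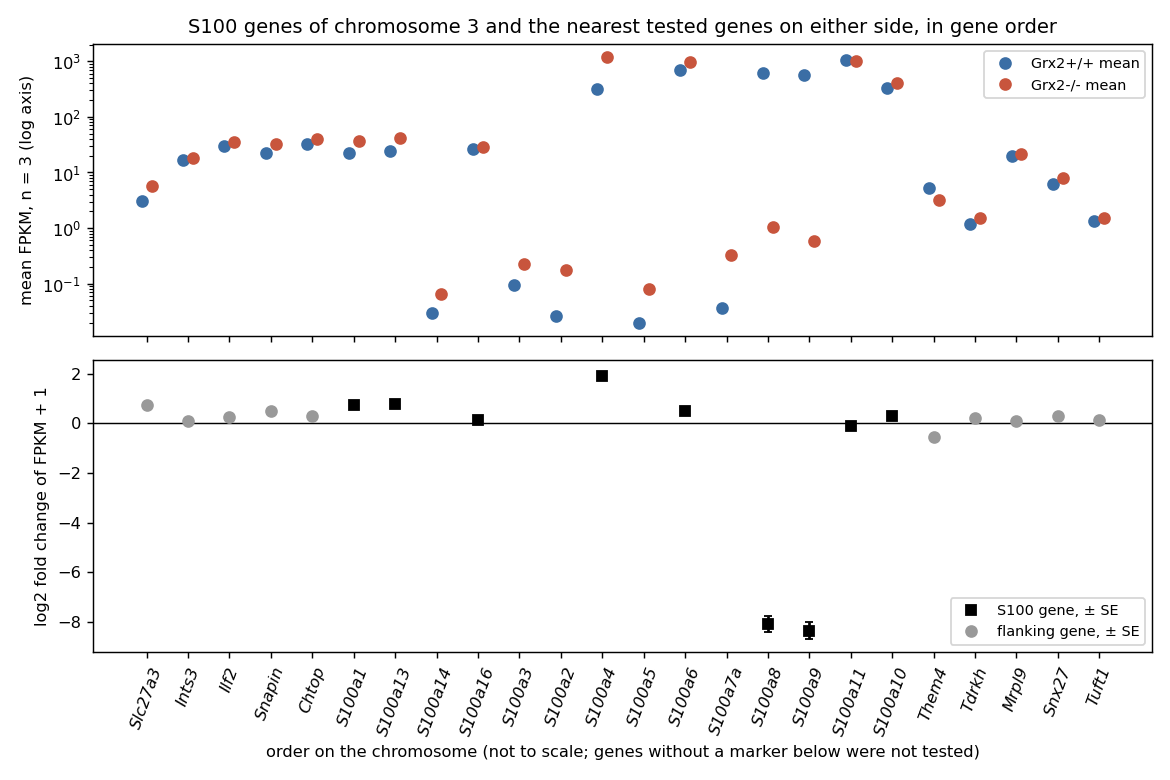
Mean FPKM on a log axis (top, n = 3 per group) and log2 fold change ± SE (bottom) of the S100 genes of chromosome 3 and the 5 nearest tested genes on either side, in gene order and not to scale. S100a4 and S100a6 rise beside S100a5, which was not tested, and S100a8 and S100a9 are the only genes shown that fall beyond -8.

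Partners and receptors of S100 proteins moved in both directions. Of 30 listed genes 22 were tested, 12 rose, 6 fell and 4 did not pass, with a median of 0.12 beside 0.085 for all tested genes, of which 42.7% rose and 24.6% fell. After median-of-ratios scaling the counts were 8 up and 10 down, and after quantile normalization 9 up and 10 down; over all 11083 tested genes they were then 3699 up and 3670 down, and 3413 up and 3945 down. Among the partners of S100a4, Myh9, the heavy chain of non-muscle myosin IIA, was at 361, 351 and 359 FPKM in Grx2+/+ and at 231, 247 and 241 FPKM in Grx2-/- (-0.57 ± 0.034, limma adjusted p = 2.54e-06). Ppfibp1, liprin beta 1, fell as well, from 61.4 ± 0.711 to 39.9 ± 1.24 FPKM (-0.61 ± 0.034). The FPKM ratio of S100a4 to Myh9 was 0.875 ± 0.129 in Grx2+/+ and 4.92 ± 0.386 in Grx2-/-. Ahnak, the giant scaffold that the S100a10-annexin A2 complex binds, rose from 60.7 ± 2.36 to 90.1 ± 2.48 FPKM (0.56 ± 0.039). Ager, the receptor for advanced glycation end products that extracellular S100 proteins engage, was at 0.0872 ± 0.0306 FPKM in Grx2+/+ and 0.0521 ± 0.023 FPKM in Grx2-/- and was not tested. On the same list, Tlr4 rose from 3.37 ± 0.196 to 5.04 ± 0.524 FPKM (0.46 ± 0.075) and Bsg fell from 419 ± 12.9 to 351 ± 4.17 FPKM (-0.26 ± 0.033). Ager, Tlr4 and Bsg were named after their values were seen.

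**Figure D5:**
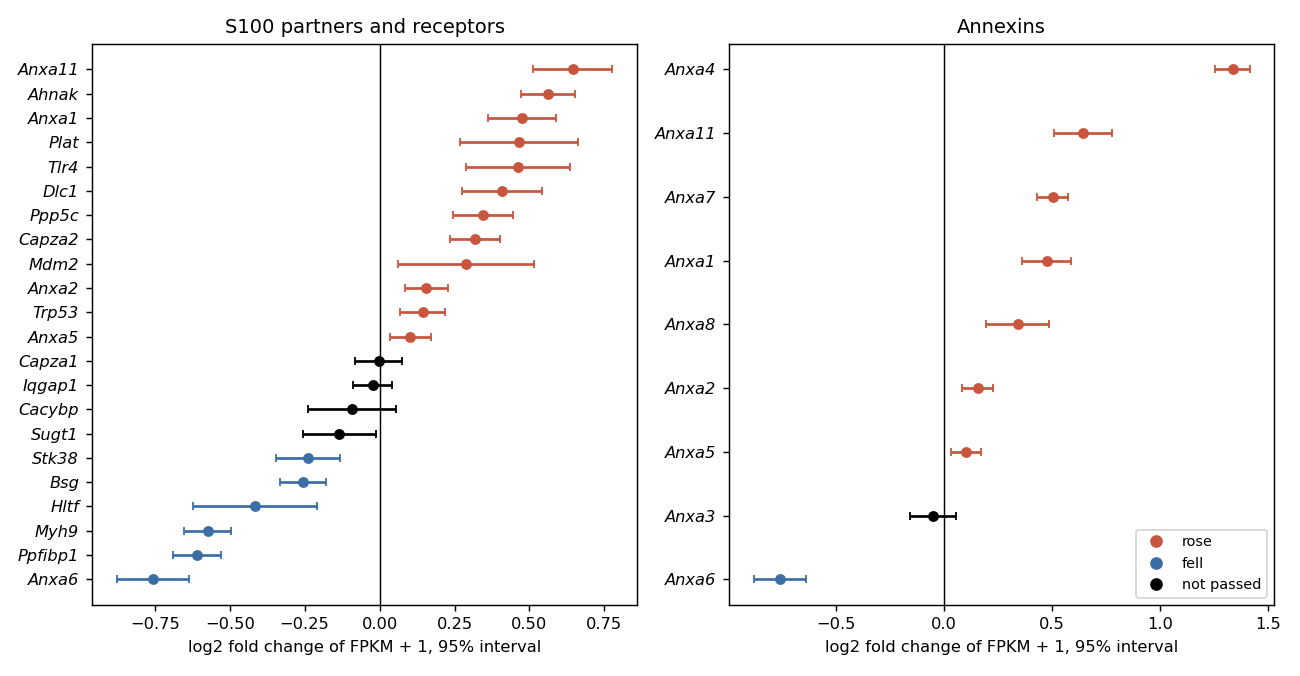
Log2 fold change with 95% interval, on the log2(FPKM + 1) scale, of the tested S100 partners and receptors (left) and annexins (right), from 3 libraries per group; colour gives the call. Partners lie on both sides of 0, with Myh9, Ppfibp1 and Anxa6 lowest, and Anxa4 has the largest rise among annexins at 1.33.

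Of 12 annexins, the calcium-dependent membrane-binding proteins that several S100 dimers bridge, 9 were tested, 7 rose, 1 fell and 1 did not pass. Their median was 0.34, beside 0.085 for all tested genes, of which 42.7% rose and 24.6% fell. Median-of-ratios scaling gave 5 up and 2 down, and quantile normalization 6 up and 2 down. Over all tested genes the counts were then 3699 up and 3670 down, and 3413 up and 3945 down. Anxa4 rose from 29.9 ± 0.681 to 77.0 ± 1.86 FPKM (1.33 ± 0.034), Anxa11, a partner of S100a6, from 19.1 ± 1.5 to 30.4 ± 1.05 FPKM (0.64 ± 0.057) and Anxa7 from 40.3 ± 0.532 to 57.5 ± 0.75 FPKM (0.50 ± 0.03). Anxa6, another S100a6 partner, was the one that fell, from 181 ± 5.48 to 107 ± 7.35 FPKM (-0.76 ± 0.052). Of 31 other EF-hand calcium proteins 26 were tested, 12 rose, 6 fell and 8 did not pass, with a median of 0.073, shares near those of all tested genes (42.7% and 24.6%). Under either scaling 9 of these rose and 8 fell. Efhd2, an actin-binding EF-hand protein, rose from 46.4 ± 0.588 to 127 ± 8.39 FPKM (1.43 ± 0.049), and the calpain protease genes Capn1 (1.21 ± 0.075), Capn2 (0.40 ± 0.029) and Capns1 (0.48 ± 0.03) rose with it. Calm2, a calmodulin gene, and Rcn1, a reticulocalbin of the endoplasmic reticulum, fell (-0.41 ± 0.035 and -0.49 ± 0.041).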

How the data were processed

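Total RNA libraries of mouse BMSCs, 3 per genotype, were grouped by the genotype in the labels. The authors deposited FPKM values, 1 column per library and 22984 symbols. The tools named are HTSeq, HISAT2 and R 3.2.0, with build GRCm39, per the submitters' processing notes; the annotation, any filter and the strand setting were not given in the sources used here. FPKM corrects for depth and gene length, not for a shift in composition. Values were used as deposited. Whole reads were worked back for 22982 genes (99.99%, within 1e-06 reads), taking the smallest whole gene length that fits, and listed genes held 99.4% to 99.6% of the implied depth. At this depth counting error is small except where a gene had few reads: S100b, S100a8 and S100a9 in Grx2-/-, and the S100 genes that were not tested. Beside the observed spread in Grx2+/+ it was not small for S100a1 and S100a16. As coefficients of variation, counting gave 4.21% against 3.49% observed for S100a1 and 2.15% against 1.44% for S100a16.

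The 11083 genes whose mean FPKM reached 1 were fitted as log2(FPKM + 1) with limma 3.58.1 in R 4.3.3 (lmFit, eBayes with trend), two-sided, with Benjamini-Hochberg adjustment over all tested genes at 0.05. The fit was tested on simulated data. The members and lists were chosen with earlier results of these data known. Genes named are the members, every other S100 gene, up to 6 of each other list with the smallest p, Glrx2, marker genes, the nearest gene to each member, Anxa2 as the partner in the S100a10 ratio, and those said to be named after their values were seen. Alternatives changed 1 choice at a time: pseudocounts of 0.1 and 0.01, a mean FPKM minimum of 5 or none, scaling by median of ratios or by quantiles, a fit with no trend or with robust variances, a replicate block, each library left out, and voom on the whole reads; a fit without both libraries that stand apart was added after the data were seen. Promoters came from the RefSeq table of GRCm38.p6. Figures were drawn with matplotlib 3.10.9.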

Additional observations from a re-analysis of the deposited data

How the results depend on the processing

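S100a1, S100a4, S100a6, S100a10 and S100a13 kept their direction and call under all 17 alternatives, and S100b under the 16 that tested it (it is under a mean FPKM of 5). With 1 library left out, 6 to 7 members rose and 0 fell. The number of members that fell became 1 (S100a11) with median-of-ratios scaling and with the replicate block (limma adjusted p = 0.0479). With quantile normalization S100a11 was at 0.015 and S100a16 at -0.010, both reversed and neither past the threshold. The partners that fell became 10 with either scaling and the annexins that fell 2. With no filter 1 of the other S100 genes rose, S100a7a, and 1 gene of the chromosome 3 span fell, Tchh; both were chosen after their values were seen. The S100a10 to Anxa2 difference of 0.0512 ran from 0.0446 to 0.0611 with 1 library left out. The replicate numbers do not show a pairing: same-numbered deviations correlated at 0.107, 0.124 and 0.0199, and the block gave 4771 genes higher and 2791 lower in all, against 4737 and 2728 without it.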

Other observations

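For each member the tested gene with the nearest pattern was found by the smallest root mean square difference of log2(FPKM + 1) values, centred on their mean over the 6 libraries, among 10739 genes. The nearest to S100a4 was Ucp2, a mitochondrial carrier (difference 0.04), which went from 41.9 to 163 FPKM. The nearest to S100a1 was Cenpx, a centromere and DNA repair protein (0.013), and to S100a13 Orai1, the pore of the store-operated calcium channel (0.028). For S100a6 it was Eme1 (0.035), for S100a10 Fis1 (0.015), for S100a11 Ncoa7 (0.014), for S100a16 Cdipt (0.013) and for S100b Sncg (0.053). These distances describe 6 libraries only, and all of them include the genotype difference.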
